A study of Mus musculus with 8 samples.

Results

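The genes described here are 36 members of the integrated stress response and of the unfolded protein response, chosen by gene symbol from a table of 48315 symbols. They fall into 20 genes of the ATF4 branch and 16 genes of the endoplasmic reticulum. They were measured in dorsal root ganglia, the clusters of sensory neuron cell bodies and their glia beside the spinal cord, of wild-type mice of strain SW that had all received saline. The design set 4 libraries labelled female, Female 1 to 4, against 4 libraries labelled male, Male 1 to 4, made with a kit that reads transcripts near their 3′ ends. No age is given in the labels, nor whether each library held 1 animal's ganglia or pooled ones. The p-values therefore reflect how far these libraries scatter, part of which may be technical. The labels name no agent other than saline.

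Cells answer amino acid shortage, unfolded protein and other strains by phosphorylating the initiation factor eIF2, which lowers protein synthesis while the mRNA of the transcription factor ATF4 is translated more. ATF4 then drives genes of amino acid synthesis and uptake, and feedback genes that restore translation. In the endoplasmic reticulum the sensors IRE1, ATF6 and PERK respond to unfolded protein and raise chaperones, disulfide isomerases and the machinery that sends misfolded proteins to degradation. Sensory neurons make and secrete large amounts of membrane protein and peptide, and eIF2 phosphorylation has been studied in them in connection with pain. Control by eIF2 acts on translation, which RNA levels do not measure. Ribosome profiling was not analysed here.

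Of the 36 members, 35 had a mean of at least 1 CPM (reads per 1000000 counted reads) over the 8 libraries and were tested. The libraries held between 7497794 and 12155712 counted reads, so that 3 reads, the floor used here, correspond to between 0.247 and 0.40 CPM. All differences are on the log2(CPM + 1) scale, female minus male by label. That scale understates the change of low genes. In whole ganglia, fewer cells of a type and less RNA per cell cannot be told apart. All 9 sensory neuron markers looked at were above 0 in every library, as were the 5 satellite glia and 5 Schwann cell markers.

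The libraries Female 1 and Male 1 did not match their labels in sex-linked transcripts. Differences and tests between the labels over 8 libraries are therefore given with and without them. Fits with other scalings or weights, or without Female 2 alone, kept both under their labels. Orders of the libraries, ratios, medians by library and marker sums cover all 8 libraries. Xist, expressed from the inactive X chromosome, stood at 0.270 CPM in Female 1 and at 294 CPM in Male 1. Its range was 162 to 349 CPM in the other libraries labelled female and 1.63 to 5.44 CPM in the other libraries labelled male. Ddx3y, a Y-linked gene, stood at 102 CPM in Female 1 and at 0.855 CPM in Male 1. Male 2 also stood apart, with a sum of 289 CPM over 6 markers of the central nervous system, against at most 15.6 CPM in any other library. All 6 of those markers were above 0 in every library.

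No member of either branch passed the test between the labels. Limma called 0 of the 35 tested members at an adjusted p of 0.05, and 0 of all 14505 genes (0.0%). Among the members 1 had an unadjusted p under 0.05 with higher values in the female libraries, Calr, and 1 with lower values, Syvn1. Over all tested genes 2.74% were higher and 8.26% lower at that level, 1595 of 14505 in all, a larger share than the members' 2 of 35. Log2 differences were below 0 for 23 of 35 members and for 67.5% of all tested genes. The median difference was −0.02 for the ATF4 branch and −0.10 for the endoplasmic reticulum, beside −0.18 for all tested genes. The whole table was shifted toward lower values in the female libraries. Median ratio scaling, which brings the all-gene median to −0.01, turned both branch medians positive, at 0.16 for the ATF4 branch and 0.07 for the endoplasmic reticulum.

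Without Female 1 and Male 1, 0 of 35 members passed limma, while 6 of all tested genes did (0.0414%). In these 6 libraries 0 members had an unadjusted p under 0.05, where 0.483% of all tested genes did as higher and 1.94% as lower, 2.43% in all. Differences were below 0 for 17 of 35 members and for 64.4% of all tested genes. The sign was other than over 8 libraries for 6 of 35 members (Nupr1, Shmt2, Slc7a11, Sdf2l1, Canx and Creld2). The medians were −0.05 for the ATF4 branch, 0.10 for the endoplasmic reticulum and −0.12 for all tested genes. Without Female 2, limma called 5 of 35 members, with 1 higher (Calr) and 4 lower (Psph, Slc3a2, Ddit4 and Syvn1). Over all tested genes, 1.67% passed as higher and 7.67% as lower in those 7 libraries, 9.33% in all. When limma weighted the libraries by their scatter, with the lowest weight of 0.312 for Female 2, it called 13 of 35 members, 6 higher and 7 lower. With those weights 8.07% of all tested genes passed as higher and 22.0% as lower, 30.1% in all. Those weights changed all 8 libraries at once, up to 3.13 for Female 4, so only the fit without Female 2 isolates that library. Both of these fits kept Female 1 as female and Male 1 as male, and neither was run without them. The 5 members called without Female 2 all had 1 of the mirrored orders given below. Those orders set Female 1, Female 3, Female 4 and Male 4 against the rest. Without Female 2, only Male 4 crosses the labels in that split.

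**Figure D1:**
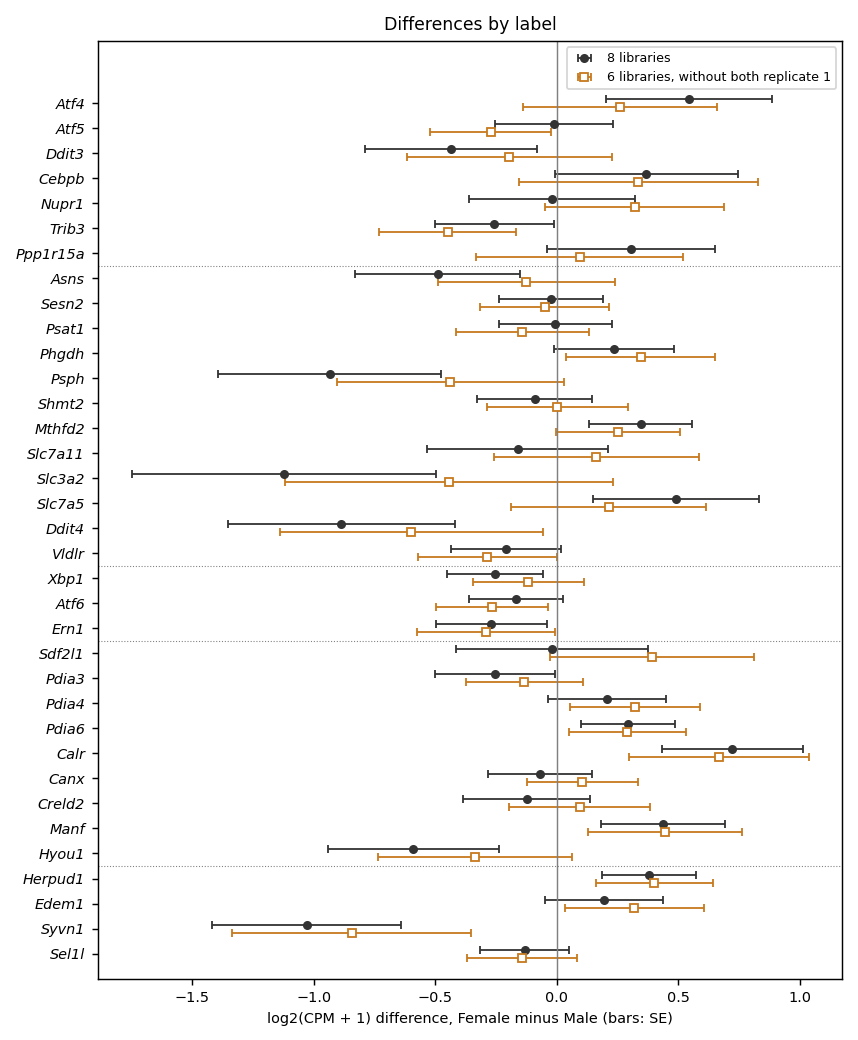
Log2(CPM + 1) differences, female minus male by label, of the 35 tested members, ordered by role from top to bottom. Filled points use 8 libraries and open squares the 6 libraries without both replicate 1, and bars are standard errors. The differences over 8 libraries reach from −1.12 (Slc3a2) up to 0.72 (Calr), and none passed limma in either set of libraries.

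Among the regulators and feedback genes of the ATF4 branch, Atf4 and Ddit3 had opposite orders of the libraries. Atf4, the transcription factor gene itself (ENSMUSG00000042406.7, GRCm38 chromosome 15, 80255184 to 80257541) stood at 380.0, 156, 299 and 309 CPM in Female 1 to 4, against 144, 129.9, 199 and 323 CPM in Male 1 to 4. Female 1, Female 3, Female 4 and Male 4 were high and the other 4 libraries low, and the labels overlapped. The log2 difference was 0.54 with an SE of 0.34 (limma adjusted p = 0.479), and 0.26 with an SE of 0.40 without both replicate 1 libraries (adjusted p = 0.951). It was −0.06 when Male 2 was left out as well.

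Ddit3, which encodes the bZIP factor CHOP (ENSMUSG00000025408.15, chromosome 10, 127290774 to 127296288), had the opposite order. It stood at 10.6, 34.3, 14.0 and 12.7 CPM in Female 1 to 4, against 24.8, 28.3, 23.5 and 14.2 CPM in Male 1 to 4. The libraries in which Atf4 was high were the ones in which Ddit3 was low. The low libraries of Ddit3 were also the 4 lowest for 23.1% of all tested genes, and those of Atf4 for 10.2%. The log2 difference of Ddit3 was −0.44 with an SE of 0.35 (limma adjusted p = 0.552), −0.20 without both replicate 1 libraries and 0.00 without Male 2 as well. Exons of Ddit3 overlap those of Mars, the methionyl-tRNA synthetase gene on the opposite strand, and no source used here says if counting kept strands apart, so reads of these neighbours could not be told apart. They also overlap Gm4189 on the opposite strand and another entry named Ddit3 on the same strand. Mars stood at 14.9, 76.8, 33.6 and 30.9 CPM in Female 1 to 4, against 62.7, 78.1, 44.7 and 37.0 CPM in Male 1 to 4.

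The other 5 regulators also overlapped between labels over 8 libraries. Atf5, a bZIP factor related to ATF4, ranged from 107 to 228 CPM and was lowest in Female 3 and highest in Female 1. Ppp1r15a, which directs a phosphatase to eIF2 and so restores translation, ranged from 22.8 to 59.7 CPM, with its 4 high libraries the same as those of Atf4. Cebpb, encoding C/EBP beta, a dimer partner of ATF4, had those 4 high libraries too, with a range of 4.13 to 14.1 CPM. Nupr1, a small nuclear stress protein gene, ranged from 5.68 to 16.8 CPM and Trib3, a pseudokinase gene induced by ATF4, from 3.91 to 7.79 CPM. Exons of Atf5, Cebpb and Ppp1r15a overlap genes on the opposite strand, with the same uncertainty. Without both replicate 1 libraries, Trib3 did not overlap, at 4.20, 3.91 and 4.27 CPM in Female 2 to 4, against 4.57, 5.98 and 7.79 CPM in Male 2 to 4 (log2 difference −0.45, SE 0.28, limma adjusted p = 0.946). It was 1 of 35 members with such a gap downward, where 4.94% of all tested genes had one.

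**Figure D2:**
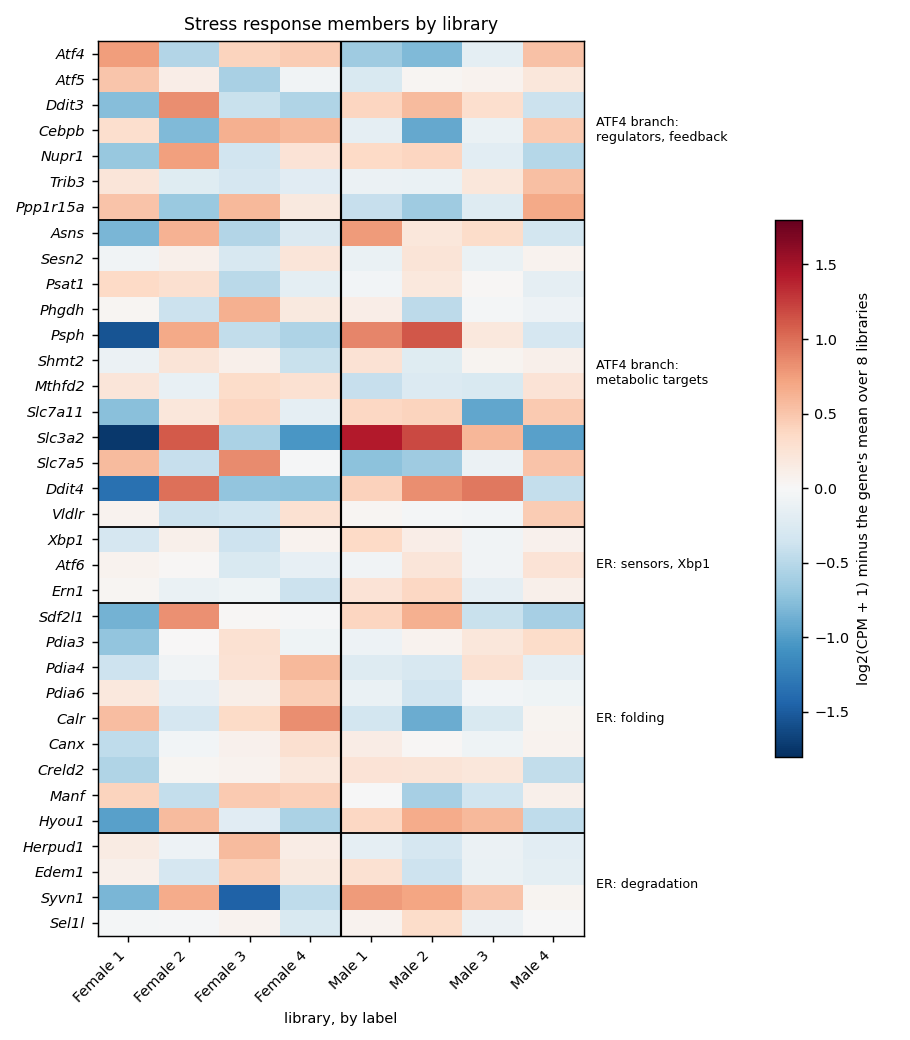
Heat map of the 35 tested members (rows, grouped by role) in the 8 libraries (columns, female by label on the left). Colour gives log2(CPM + 1) minus the gene's mean over the 8 libraries. Rows such as Slc3a2, Psph and Ddit4 are below their means in Female 1, Female 3, Female 4 and Male 4, while Atf4, Slc7a5 and Calr have their 4 highest values there.

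Serine synthesis and one-carbon genes, which are ATF4 targets, had unlike ranges. Psph, the phosphatase of the last step of serine synthesis, stood at 1.98, 12.998, 5.42 and 4.93 CPM in Female 1 to 4, against 15.0, 17.9, 8.92 and 6.05 CPM in Male 1 to 4, a 9.05-fold range. Female 1, Female 3, Female 4 and Male 4 were the 4 low libraries. The log2 difference was −0.94 with an SE of 0.46 (limma adjusted p = 0.446), −0.44 without both replicate 1 libraries (adjusted p = 0.946) and −1.32 without Female 2 (adjusted p = 0.0491). Psph was highest in Male 2, and without that library and both replicate 1 libraries the difference was −0.04. Its exons overlap those of Cct6a on the opposite strand. The genes of the earlier steps had other orders of the libraries. Phgdh ranged from 24.3 to 53.4 CPM, a 2.203-fold range, and was highest in Female 3 and lowest in Male 2. An entry named Phgdh-ps1, a pseudogene by its name, is annotated, and reads it shares with Phgdh could not be assigned. Psat1 ranged from 15.4 to 28.2 CPM and was highest in Female 1, where Psph was lowest. In the mitochondrial folate pathway, Mthfd2 had 28.8 to 49.2 CPM and Shmt2, whose exons overlap a gene on the opposite strand, 3.73 to 6.48 CPM.

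Asns, the asparagine synthetase gene and a classic ATF4 target (ENSMUSG00000029752.12, chromosome 6, 7675169 to 7693254), stood at 6.40, 19.3, 8.07 and 9.87 CPM in Female 1 to 4, against 21.3, 14.0, 15.5 and 9.44 CPM in Male 1 to 4. It had its 4 lowest values in the 4 libraries in which Atf4 was high, as 23.1% of all tested genes did. Its log2 difference was −0.49 with an SE of 0.34 (limma adjusted p = 0.5001), and −0.12 without both replicate 1 libraries (adjusted p = 0.968). It was −0.06 without Male 2 as well. Chac1, a glutathione-degrading enzyme gene strongly induced through ATF4 and CHOP, was close to absent. It had 0, 2, 0 and 0 reads in Female 1 to 4, against 5, 10, 2 and 4 reads in Male 1 to 4, and it was the only member under the filter. Its values in the female libraries, and that of Male 3, lie under the floor of 3 reads.

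LAT1, the transporting chain of an amino acid exchanger, is encoded by Slc7a5 and pairs with a heavy chain encoded by Slc3a2. Both genes are ATF4 targets. These partners were picked out after their values were seen. Slc3a2 (ENSMUSG00000010095.13, chromosome 19, 8706882 to 8723369) stood at 11.6, 89.5, 27.2 and 19.2 CPM in Female 1 to 4, against 112, 95.0, 62.8 and 20.2 CPM in Male 1 to 4. Slc7a5 (ENSMUSG00000040010.10, chromosome 8, 121881150 to 121907694) stood at 214, 107, 259 and 141 CPM in Female 1 to 4, against 85.3, 91.7, 133 and 205 CPM in Male 1 to 4. The 4 libraries with the most Slc7a5 were the 4 with the least Slc3a2. The 4 lowest libraries of Slc3a2 were also the lowest for 23.1% of all tested genes, and those of Slc7a5 for 10.2%. The ratio of Slc7a5 to Slc3a2 was 18.4, 1.196, 9.53 and 7.35 in Female 1 to 4, against 0.760, 0.966, 2.13 and 10.1 in Male 1 to 4. It is a ratio of CPM that are not divided by length, so only its 24.3-fold range between libraries is read here. Limma gave log2 differences of −1.12 with an SE of 0.63 for Slc3a2 (adjusted p = 0.461) and 0.49 with an SE of 0.34 for Slc7a5 (adjusted p = 0.503). Without both replicate 1 libraries they were −0.44 and 0.21, and without Male 2 as well they were 0.02 and −0.07. Without Female 2, Slc3a2 passed at −1.68 (adjusted p = 0.0486). Slc7a11, the cystine transporter chain that pairs with the same heavy chain, ranged from 1.47 CPM in Male 3 to 5.54 CPM in Male 4.

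**Figure D3:**
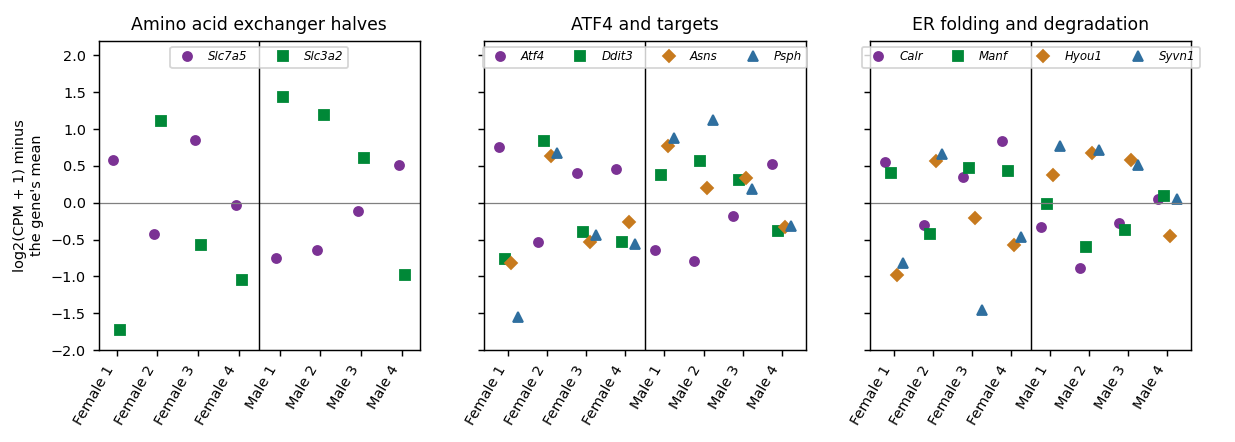
Log2(CPM + 1) minus the gene's mean over the 8 libraries, for 3 sets of members, with libraries along the horizontal axis (female by label on the left) and 1 point per gene and library. Slc7a5 and Slc3a2 lie on opposite sides of 0 in all 8 libraries except Female 4, where Slc7a5 is near 0 and Slc3a2 low.

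Ddit4, which encodes the mTORC1 inhibitor REDD1 (ENSMUSG00000020108.3, chromosome 10, 59949669 to 59951834), was low in the same 4 libraries. It stood at 59.6, 305, 93.0 and 91.5 CPM in Female 1 to 4, against 203, 273, 296 and 112 CPM in Male 1 to 4. The log2 difference was −0.89 with an SE of 0.47 (limma adjusted p = 0.455), −0.60 without both replicate 1 libraries (adjusted p = 0.946) and −1.37 without Female 2 (adjusted p = 0.0364). When Male 2 was left out along with both replicate 1 libraries, it was −0.41. Sesn2, a leucine sensor gene that also restrains mTORC1, stayed between 7.81 and 11.6 CPM, a 1.49-fold range. Vldlr, a lipoprotein receptor gene, ranged from 18.2 to 33.6 CPM.

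**Figure D4:**
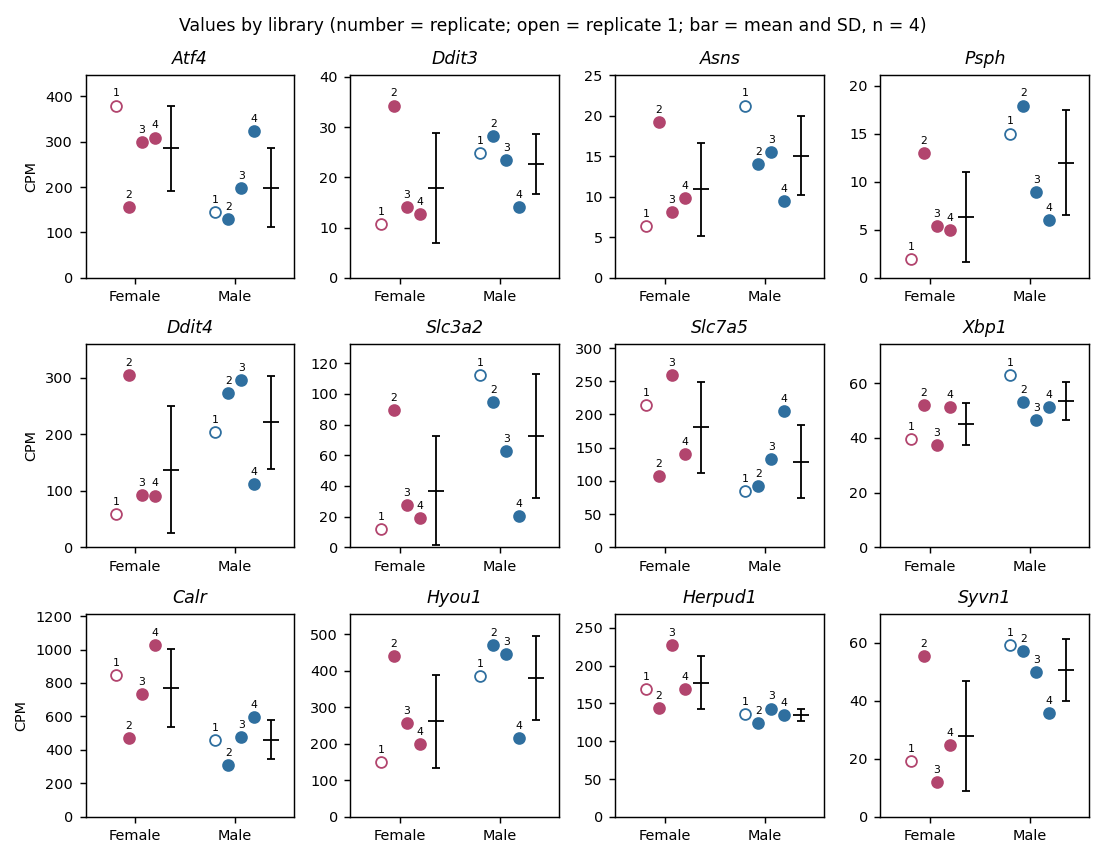
CPM of 12 members by label, with points numbered by replicate, replicate 1 drawn open, and bars giving the mean and SD of 4 libraries. In 11 of the 12 panels the labels overlap. In the Herpud1 panel the 4 female libraries lie between 144 and 228 CPM and the 4 male libraries between 124 and 143 CPM.

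Among the sensors of the endoplasmic reticulum, no member ranged over more than 0.76 on the log2 scale, while the median range of all tested members was 1.06. Xbp1, whose mRNA is spliced by IRE1 into the form that encodes the active factor (ENSMUSG00000020484.18, chromosome 11, 5520659 to 5525893), stood at 39.5, 52.2, 37.3 and 51.2 CPM in Female 1 to 4, against 63.0, 53.3, 46.7 and 51.5 CPM in Male 1 to 4. Reads near the 3′ end do not tell the spliced from the unspliced form. Ern1, the gene of IRE1 alpha, stood at 4.42, 3.87, 4.03 and 3.07 CPM in Female 1 to 4, against 5.25, 5.87, 3.73 and 4.62 CPM in Male 1 to 4. Atf6 ranged from 17.6 to 25.8 CPM. Log2 differences were −0.25 with an SE of 0.20 for Xbp1 and −0.27 with an SE of 0.23 for Ern1 (limma adjusted p of 0.540 and 0.563), and −0.12 and −0.29 without both replicate 1 libraries.

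Among the folding factors, Calr and Manf were high where Hyou1 was low. The 4 lowest libraries of Hyou1 were also the lowest for 23.1% of all tested genes, and those of Calr and Manf for 10.2%. Calr, which encodes the lectin chaperone calreticulin (ENSMUSG00000003814.8, chromosome 8, 84841850 to 84846934), stood at 848, 469, 734 and 1029.5 CPM in Female 1 to 4, against 459, 311, 475 and 596 CPM in Male 1 to 4. Female 2 alone of the female libraries lay within the male range. The log2 difference was 0.72 with an SE of 0.29 (unadjusted p = 0.0307, limma adjusted p = 0.446), 0.67 with an SE of 0.37 without both replicate 1 libraries (adjusted p = 0.946) and 0.94 without Female 2 (adjusted p = 0.046). With both replicate 1 libraries and Male 2 left out, the difference of Calr was 0.41. Its membrane-bound relative Canx, calnexin, ranged from 378 to 635 CPM and its difference was −0.07 with an SE of 0.21, and 0.11 with an SE of 0.23 without both replicate 1 libraries (limma adjusted p of 0.881 and 0.957). An entry named Calr-ps, a pseudogene by its name, is annotated, and reads it shares with Calr could not be assigned.

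Manf, a secreted protein of the reticulum that protects neurons, had the same 4 high libraries as Calr and Atf4, and its mean was 56.2 ± 14.5 CPM in the female libraries and 40.8 ± 9.02 CPM in the male libraries (SD, n = 4 each). It stood at 62.1, 34.6, 65.0 and 63.2 CPM in Female 1 to 4, against 46.4, 30.6, 36.1 and 50.05 CPM in Male 1 to 4. Its log2 difference was 0.44 with an SE of 0.26 (limma adjusted p = 0.467), and 0.45 without both replicate 1 libraries (adjusted p = 0.946). It was 0.29 without Male 2 as well. Exons of Manf overlap those of Rbm15b on the same strand, and of Dcaf1 and 4930524O07Rik on the opposite strand, so its reads are uncertain. Hyou1, a large HSP70-like chaperone gene that was picked out after its values were seen, had the opposite order. It stood at 150.0, 440.0, 256 and 199.5 CPM in Female 1 to 4, against 385, 472, 446 and 216 CPM in Male 1 to 4 (log2 difference −0.59, SE 0.35, limma adjusted p = 0.468, and −0.34 without both replicate 1 libraries). Without Male 2 as well, the difference was −0.14.

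Of the disulfide isomerases, Pdia3 ranged from 386 to 794 CPM, Pdia6 from 142 to 247 CPM and Pdia4 from 27.2 to 53.9 CPM. Pdia3 and Pdia4 were lowest in Female 1, and Pdia6 in Male 2. Exons of Pdia3 and Pdia6 overlap genes on the opposite strand, and those of Pdia4 overlap Mir704 on the same strand. Creld2, a stress-induced reticulum protein gene, ranged from 4.06 to 7.698 CPM. Sdf2l1, a chaperone partner induced in the unfolded protein response, was at 1, 30, 8 and 7 reads in Female 1 to 4, against 13, 19, 5 and 3 reads in Male 1 to 4. Its values in Female 1 and Male 4 lie at or under the floor.

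In the degradation machinery, Herpud1 had a higher and Syvn1 a lower mean in the female libraries, and neither passed limma over 8 libraries. Herpud1, a membrane protein gene of the ubiquitin ligase complex (ENSMUSG00000031770.15, chromosome 8, 94386438 to 94395377), stood at 169, 144, 228 and 169 CPM in Female 1 to 4, against 137, 124, 143 and 135 CPM in Male 1 to 4. The labels did not overlap, with Female 2 just above Male 3. It was the 1 member without overlap over 8 libraries, where 1.23% of all tested genes had the female libraries above and 3.0% below. The log2 difference was 0.38 with an SE of 0.19 (limma adjusted p = 0.449), and 0.40 with an SE of 0.24 without both replicate 1 libraries (adjusted p = 0.946), where it again did not overlap, as 2.65% of all tested genes did in that direction. Without Female 2 it did not pass (adjusted p = 0.136). Its difference was 0.35 without both replicate 1 libraries and Male 2. The sum of 5 macrophage markers, all above 0 in every library, also did not overlap, at 251, 188, 303 and 287 CPM in Female 1 to 4, against 102, 129, 139.7 and 175 CPM in Male 1 to 4. C1qa made up most of that sum, with 144 to 264 CPM in the female libraries and 72.2 to 139.7 CPM in the male libraries. Over 8 libraries, log2 differences were 1.04 for C1qa and 0.53 for Aif1, but −0.88 for Csf1r and −0.48 for C1qb. Without both replicate 1 libraries they were 0.86, 0.52, −0.55 and −0.38 in the same order. Cd68 was under the filter. Macrophages' part in the values of Herpud1 was not tested.

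Syvn1, the gene of the ubiquitin ligase HRD1 (ENSMUSG00000024807.17, chromosome 19, 6046576 to 6053712), stood at 19.1, 55.3, 11.97 and 24.8 CPM in Female 1 to 4, against 59.4, 57.2, 49.8 and 35.8 CPM in Male 1 to 4. Female 2 was the only female library within the male range. It had the smallest unadjusted p of the members, 0.0227, with a log2 difference of −1.03 and an SE of 0.39 (limma adjusted p = 0.446). Without both replicate 1 libraries the difference was −0.84 with an SE of 0.49 (adjusted p = 0.946), and without Female 2 it was −1.42 (adjusted p = 0.0364). Leaving out Male 2 with both replicate 1 libraries gave −0.70 for Syvn1. Its exons overlap those of Mrpl49 on the opposite strand. Sel1l, the partner that stabilises HRD1, ranged from 74.7 to 114 CPM, lowest in Female 4. Edem1, a lectin gene that hands misfolded glycoproteins to degradation, ranged from 6.20 to 11.5 CPM.

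Across members, 14 of 35 had 1 of a pair of mirrored orders. In 7 of them (Ddit3, Asns, Psph, Slc3a2, Ddit4, Hyou1 and Syvn1) the 4 lowest libraries were Female 1, Female 3, Female 4 and Male 4, which was so for 23.1% of all tested genes. In the other 7 (Atf4, Cebpb, Ppp1r15a, Mthfd2, Slc7a5, Calr and Manf) the 4 lowest were Female 2, Male 1, Male 2 and Male 3, as for 10.2% of all tested genes. Of the 70 possible sets of 4, these were the most and second most common among all tested genes. This split crosses the labels, with 3 female libraries and 1 male library on one side, and each set holds members of both branches.

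Summed markers of fibroblasts, Schwann cells, satellite glia and erythroid cells all had the 4 lowest libraries of the first set. The sum of 5 fibroblast markers was 589, 2278, 887 and 1366 CPM in Female 1 to 4, against 1932, 2140.4, 1479 and 1068 CPM in Male 1 to 4, and all 5 markers were above 0 in every library. That of 5 Schwann cell markers was 10393, 17814, 8458 and 12955 CPM in Female 1 to 4, against 16638, 19078, 16539 and 12707 CPM in Male 1 to 4. The sum of 5 satellite glia markers was 916, 1376, 896 and 1074 CPM in Female 1 to 4, against 1541, 1657, 1126 and 1001 CPM in Male 1 to 4. Erythroid markers, 5 in number, came to 971, 3010.2, 881 and 1119.8 CPM in Female 1 to 4, against 1130.3, 2233, 1537 and 854 CPM in Male 1 to 4. For 9 sensory neuron markers it was 7635, 6997, 10529 and 8075 CPM in Female 1 to 4, against 6868, 5788, 8773 and 9191 CPM in Male 1 to 4, with Male 2 lowest. Single neuron markers differed: Prph, Tac1 and Avil had the 4 lowest libraries of the second set, and the other neuron markers did not. Nefh, Snap25 and Isl1 were lowest in Female 1. The part of all these cell types in the members' values was not tested.

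The median over the 19 tested ATF4-branch members of log2(CPM + 1) minus the gene's mean was 0.03, 0.12, −0.31 and −0.06 in Female 1 to 4, against 0.04, 0.03, −0.04 and 0.09 in Male 1 to 4. For the 16 members of the endoplasmic reticulum it was −0.17, −0.03, 0.07 and 0.10 in Female 1 to 4, against 0.10, 0.09, −0.07 and 0.02 in Male 1 to 4. Over all tested genes it was −0.22, 0.09, −0.15 and −0.07 in Female 1 to 4, against 0.12, 0.17, 0.01 and 0.04 in Male 1 to 4. Female 3 was the lowest library for the ATF4 branch, and Female 1 for the endoplasmic reticulum and for all tested genes. The range of a member over the 8 libraries had a median of 1.06 on the log2 scale, beside 1.196 for all tested genes.

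**Figure D5:**
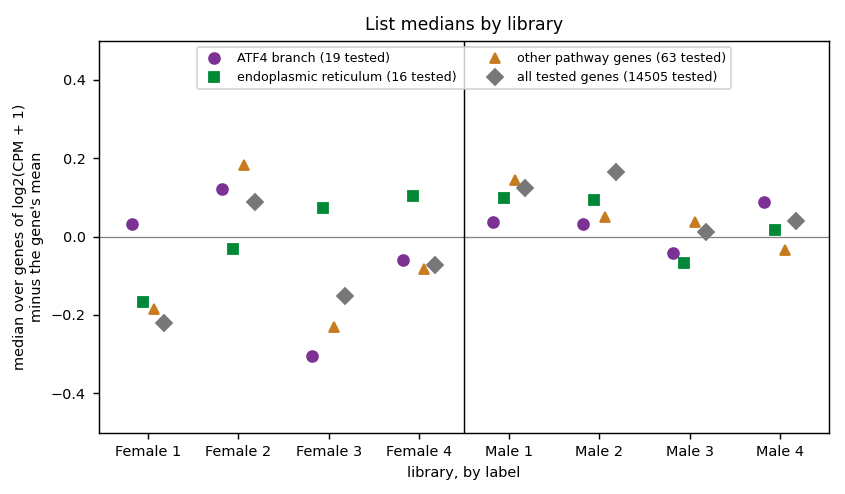
Median over the genes of a list of log2(CPM + 1) minus each gene's own mean over the 8 libraries, by library (female by label on the left). Points show 19 ATF4-branch members, 16 members of the endoplasmic reticulum, 63 other pathway genes and 14505 tested genes. The lowest point is the ATF4 branch in Female 3, at −0.31.

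Promoter sequences show how the stress response elements are spread over the members and are set here beside their levels. A promoter window of 250 bases before to 50 after the start was found for 32 of the 36 members in RefSeq (GRCm38.p6), with none used for Slc7a5, Atf6, Manf and Hyou1. The windows were searched on both strands for 3 elements. The endoplasmic reticulum stress element is CCAAT, then any 9 bases, then CCACG, and its shorter relative is ATTGG, any 1 base, CCACG. Both are bound by ATF6 or XBP1 with NF-Y, and the C/EBP-ATF element TGATGNAA is bound by ATF4 with a partner. The last one includes TTGCATCA when read on the other strand. The first element was in 5 of the 13 windows of reticulum members and in 0 of 19 windows of the ATF4 branch, beside 0.137% of all genes with a window. The shorter relative was in the window of 1 member, Herpud1, and in 0.0444% of all genes. The C/EBP-ATF element was in 6 of 19 ATF4-branch members, in 1 reticulum member and in 4.51% of all genes. These matches are letters in a window and say nothing of binding in ganglia.

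The 5 stretches below hold the full reticulum element, in capitals, and are printed 5′ to 3′ along the gene's strand because their genes differ in how they varied between libraries.
Calr, chr8:84847040-84847128, minus strand: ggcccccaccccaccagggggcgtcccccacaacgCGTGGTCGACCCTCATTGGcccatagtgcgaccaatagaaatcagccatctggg
Canx, chr11:50325765-50325853, minus strand: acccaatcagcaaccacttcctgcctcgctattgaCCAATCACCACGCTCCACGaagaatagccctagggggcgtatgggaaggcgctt
Pdia6, chr12:17266456-17266544, plus strand: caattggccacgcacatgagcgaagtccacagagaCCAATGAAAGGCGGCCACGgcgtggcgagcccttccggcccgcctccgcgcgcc
Creld2, chr15:88819485-88819573, plus strand: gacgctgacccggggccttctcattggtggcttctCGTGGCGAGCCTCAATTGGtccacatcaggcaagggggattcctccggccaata
Syvn1, chr19:6046497-6046575, plus strand: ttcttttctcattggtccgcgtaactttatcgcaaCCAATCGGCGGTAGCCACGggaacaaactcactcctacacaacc

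In Canx, Pdia6 and Syvn1 the element reads as spelled, and in Calr and Creld2 it lies on the other strand. Calr, Pdia6 and Canx were highest in Female 4, and Creld2 and Syvn1 in Male 1. The lowest library was Male 2 for Calr and Pdia6, Female 1 for Canx and Creld2, and Female 3 for Syvn1. The differences of these 5 genes ran from −1.03 for Syvn1 up to 0.72 for Calr over 8 libraries, and from −0.84 for Syvn1 up to 0.67 for Calr without both replicate 1 libraries.

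Herpud1 carries both the short reticulum element and the C/EBP-ATF element, while Chac1 and Slc7a11 carry the C/EBP-ATF element alone. They are shown because their stretches lie before the start and touch no annotated exon. The C/EBP-ATF element was also in the windows of Nupr1, Trib3, Asns and Vldlr. In Trib3 it lay past the start, and the stretches of the other 3 touched an exon. Capitals mark the elements. In the Herpud1 stretch the C/EBP-ATF element comes first and the reticulum element second.
Herpud1, chr8:94386282-94386422, plus strand: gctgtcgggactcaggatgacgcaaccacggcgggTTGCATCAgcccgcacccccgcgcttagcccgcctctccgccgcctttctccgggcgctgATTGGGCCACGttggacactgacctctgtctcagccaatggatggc
Chac1, chr2:119351014-119351091, plus strand: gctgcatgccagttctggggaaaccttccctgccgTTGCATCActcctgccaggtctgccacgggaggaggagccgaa
Slc7a11, chr3:50443618-50443714, minus strand: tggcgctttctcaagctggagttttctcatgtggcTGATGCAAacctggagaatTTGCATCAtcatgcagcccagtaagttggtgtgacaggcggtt

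Beyond the members, 69 other genes of the pathway were looked at as a list. Of these, 63 were tested and limma called 0, with 3 at an unadjusted p under 0.05 with higher and 5 with lower values in the female libraries, where 2.74% and 8.26% of all tested genes had one. Log2 differences were below 0 for 42 of the 63, beside 67.5% of all tested genes. Without both replicate 1 libraries limma called 0 of the 63, with 0 at an unadjusted p under 0.05, and 37 were below 0, beside 64.4% of all tested genes. Hspa5, the gene of the chaperone BiP, is the usual readout of the unfolded protein response. It stood at 1662, 2261, 2579 and 2539 CPM in Female 1 to 4, against 1943, 2239, 2487 and 2038 CPM in Male 1 to 4. These values overlap throughout, with a 1.55-fold range, a log2 difference of 0.04 and an SE of 0.25 (limma adjusted p = 0.946), and 0.13 without both replicate 1 libraries.

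The pathway genes with the smallest p were Eif2b4 and Vimp. Eif2b4, which encodes a subunit of the exchange factor that phosphorylated eIF2 inhibits, stood at 81.6, 84.3, 92.3 and 105 CPM in Female 1 to 4, against 48.0, 65.7, 79.8 and 54.5 CPM in Male 1 to 4. The labels did not overlap. It was 1 of the 63 with the female libraries above, where 1.23% of all tested genes were, while 2 of the 63, Eif2ak4 and Edem3, had them below, where 3.0% were. The log2 difference of Eif2b4 was 0.56 with an SE of 0.21 (limma adjusted p = 0.446), and 0.50 without both replicate 1 libraries (adjusted p = 0.946). Eif2ak4, the gene of the eIF2 kinase GCN2, stood at 4.78, 5.26, 4.79 and 4.93 CPM in Female 1 to 4, against 8.92, 6.96, 6.37 and 7.897 CPM in Male 1 to 4 (log2 difference −0.51, SE 0.21, limma adjusted p = 0.446, and −0.43 without both replicate 1 libraries, adjusted p = 0.946). Edem3, a relative of Edem1, stood at 31.7, 31.3, 30.5 and 36.8 CPM in Female 1 to 4, against 45.7, 41.3, 41.3 and 62.3 CPM in Male 1 to 4 (log2 difference −0.52, SE 0.20, limma adjusted p = 0.446, and −0.52 without both replicate 1 libraries, adjusted p = 0.946). Vimp, which encodes selenoprotein S of the degradation machinery, stood at 515, 258, 365 and 425 CPM in Female 1 to 4, against 138, 214, 299 and 265 CPM in Male 1 to 4. Female 2 lay within the male range. The log2 difference was 0.78 with an SE of 0.29 (adjusted p = 0.446), 0.41 without both replicate 1 libraries (adjusted p = 0.946) and 0.97 without Female 2 (adjusted p = 0.048).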

How the data were processed

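The 3′ end libraries came from total RNA depleted of ribosomal RNA, per the labels' protocols. FastQC 0.11.5, Bowtie2 2.2.9, TopHat2 2.1.1 and Cufflinks 2.2.1 are listed with builds mm10 and GRCm38.p4, per the submitters' processing notes, but without roles. No source used here gives the annotation, strand setting or filters. In the tables the authors deposited, values named TPM behave as CPM: each library sums to 1000000, and 98.3% to 98.6% of values under 200 reads came to a whole read count (tolerance 0.05 read) when divided by the library's step. As some values stayed fractional, no count model was used. Rows sharing 1 of 110 repeated symbols were summed. Genes whose mean reached 1 CPM were tested as log2(CPM + 1) with limma 3.58.1 in R 4.3.3 (trended variance, two-sided, Benjamini-Hochberg over 14505 genes, threshold 0.05), a script tested on simulated data. Without both replicate 1 libraries, the same genes were fitted.

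Members and lists were chosen with earlier results of these data known. Full values are given for the 2 members per role with the smallest p, for Atf4, Ddit3, Asns, Xbp1, Calr and Herpud1, for members that pass, and for Hspa5 and the 2 pathway genes with the smallest p. Slc3a2, Slc7a5, Hyou1 and the remarks on Trib3, Chac1, Sdf2l1, Mars, Eif2ak4 and Edem3 were chosen after their values were seen, as were the promoter elements. Positions are from GENCODE M21 (GRCm38, 1-based), matched by gene identifier. Each library's floor of 3 reads covers counting error only. Alternatives covered pseudocounts, filters, scalings, variance models, weights, a replicate block and leaving libraries out. Figures were drawn with matplotlib 3.10.9.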

Additional observations from a re-analysis of the deposited data

Results flagged for a closer look

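Dixon's criterion was applied to 70 groups of 4 libraries (35 tested members in the female and in the male libraries). It set 1 library apart in 3 of them, where chance gives about 1 in 20. Manf was low in Female 2, at 34.6 CPM, against 62.1 to 65.0 CPM in the other female libraries. Creld2 was low in Male 4, at 4.41 CPM, against 7.45 to 7.698 CPM in the other male libraries. Slc7a11 was low in Male 3, at 1.47 CPM, against 5.13 to 5.54 CPM in the other male libraries.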

How the results depend on the processing

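The count of 0 members that limma called was also 0 under the other pseudocounts, filters, scalings and variance models and under the replicate block. It was 13 with array weights, 6 higher (Atf4, Cebpb, Mthfd2, Calr, Manf and Pdia6) and 7 lower (Ddit3, Asns, Psph, Slc3a2, Ddit4, Hyou1 and Syvn1), where 30.1% of all tested genes passed, 4363 in number. Leaving out 1 library at a time gave 0 to 5 members and 0 to 1354 genes, and only the fit without Female 2 gave more than 0. All tested genes gave 6 calls without both replicate 1 libraries and 4 without Male 2 as well, none of them members. Among all tested genes with an unadjusted p under 0.05, 397 were higher and 1198 lower as deposited, but 952 higher and 554 lower under median ratio scaling. The median difference of the ATF4 branch was 0.16 under TMM scaling, 0.16 under median ratio scaling and 0.18 under quantile normalization. That of the endoplasmic reticulum was 0.063, 0.065 and 0.10 under the same scalings, 0.10 without both replicate 1 libraries and 0.15 without Male 2 as well. Leaving out 1 library, the medians ranged from −0.11 to 0.06 for the ATF4 branch and from −0.15 to 0.053 for the endoplasmic reticulum. Without both replicate 1 libraries and Male 2, signs turned for 12 of 35 members: Atf4 (−0.059), Ddit3 (0.0045), Slc3a2 (0.018), Slc7a5 (−0.069), Cebpb, Nupr1, Ppp1r15a, Sesn2, Slc7a11, Sdf2l1, Canx and Creld2. Among the genes given with full values, they turned under quantile normalization for Ern1 (0.032) and Hspa5 (−0.13), and Hspa5 ranged from −0.031 to 0.18 when 1 library was left out. The causes were not tested. With the replicate number as a block, 0 genes and 0 members passed, as without it; libraries of the same number deviated together at correlations of −0.31, 0.70, −0.15 and 0.44 across genes, so the numbers were not taken as pairs. Count tests were not run, since whole reads could not be recovered for every value.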
